A study of Mus musculus with 6 samples.

Results

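Bmp4, its receptors and their intracellular targets were followed across 6 single-colour Illumina beadchips, 3 hybridised with RNA of insulin-treated and 3 with RNA of vehicle-treated Mvt-1 cells. The set held 10 genes, namely the ligands Bmp4 and Bmp7, the receptors Bmpr1a and Bmpr2, the SMAD genes Smad1, Smad6 and Smad7, and the Id genes Id1, Id2 and Id3. All probes that the platform annotation gives to one of these symbols were taken, which made 22 of the 45281 probes on the array. Of these, 11 probes of 7 genes were detected on at least 3 of the 6 arrays, whereas Bmp7, Smad6 and Smad7 had no such probe. The brightest probe of each of the 7 genes entered the fit over all 9478 genes, and all 11 entered a second fit over 15007 probes. The genes were chosen with the insulin-minus-vehicle changes on these same arrays known, so they were selected on that difference, which is given as a description and supports nothing.

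Mvt-1 is a mouse mammary tumour cell line that grew out of a tumour of animals carrying Myc and Vegf transgenes under a mammary tumour virus promoter. The tested arrays came from cells given insulin at 10 nM for 90 min, and the other arrays from cells given vehicle. Both groups had been kept in 10% fetal bovine serum and then without serum for 16 h. Nothing in the labels says whether replicates came from separate cultures, so the spread between arrays may be technical.

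Bone morphogenetic proteins are secreted ligands of the TGF-beta superfamily. They bring type I and type II serine/threonine kinase receptors together, and the type I receptor phosphorylates SMAD1 and its relatives, which then enter the nucleus with SMAD4. Id genes are classical direct targets of this route. Their products lack a DNA-binding region and hold E proteins, a class of basic helix-loop-helix transcription factors, off the DNA. For Id1, this is linked in mammary epithelium to growth and to restraint of differentiation. Inhibitory SMADs, themselves induced by the ligands, close a negative feedback loop.

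Between 38.9% and 40.3% of probes were detected per array, detection meaning a detection p-value under 0.05. The lowest detected signal was 79.2 to 80.2 on the insulin arrays and 79.2 to 79.7 on the vehicle arrays, against median signals of 76.0 to 77.1 over all 6 arrays. Arrays correlated at r = 0.988 to 0.992 across the genes tested. Of 8 luminal epithelial markers 4 were detected on at least 3 arrays, with Krt8, a luminal keratin, at a mean signal of 1929 with insulin and 2107 with vehicle, while Epcam, Krt19 and Cldn4 were detected on 0 arrays. Detected on at least 3 arrays were also 2 of 4 basal markers (Krt14 and Acta2) and 3 of 6 fibroblast markers (Pdgfra, Pdgfrb and Dcn), but 0 of 4 endothelial, 0 of 3 leukocyte and 0 of 3 adipocyte markers. In the fit over all genes, 44 genes (0.464%) passed the threshold of an adjusted p under 0.05, 12 higher and 32 (0.338%) lower with insulin, and with the authors' deposited processed values 11 were higher and 11 lower.

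**Figure D1:**
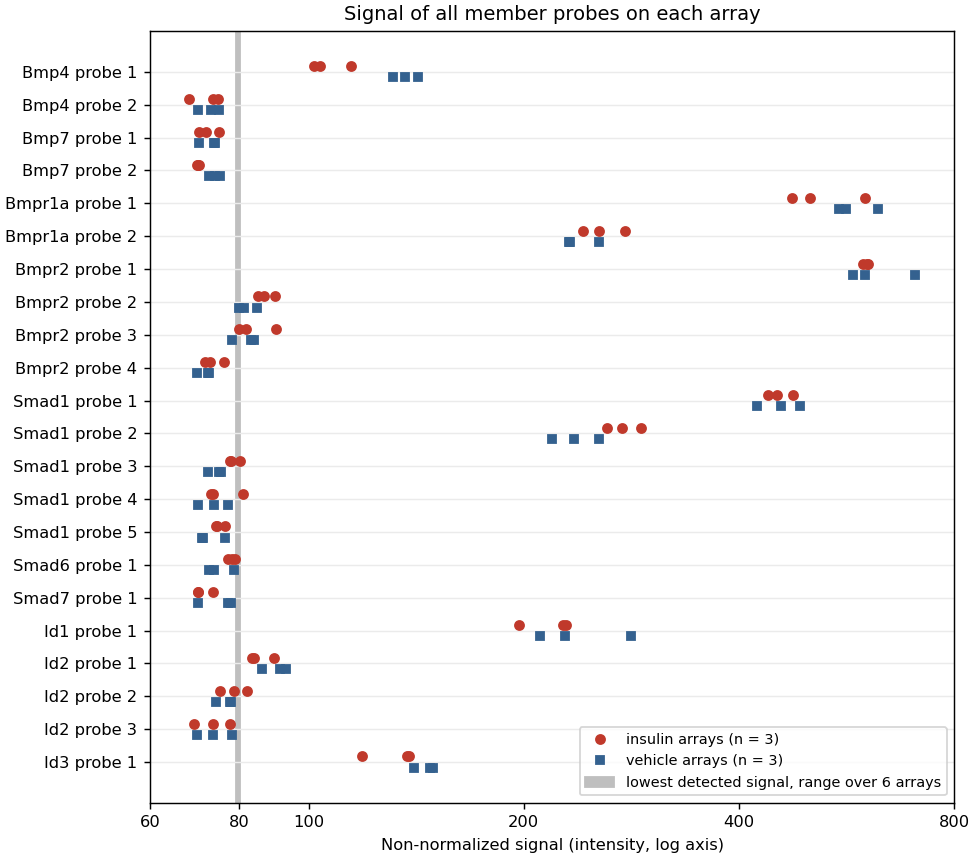
Non-normalized signal (intensity, log axis) of all 22 member probes on each of the 3 insulin arrays (circles) and 3 vehicle arrays (squares). Probes of a gene are numbered from the brightest, and the grey band spans the lowest detected signals of the 6 arrays, 79.2 to 80.2. Bmp4 probe 1 lies above the band on every array and its insulin arrays lie below its vehicle arrays, while 8 probes were detected on 0 arrays.

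Bmp4, a ligand that patterns many embryonic tissues and acts on mammary epithelium, was the only member past the threshold, and it fell with insulin. Its brighter probe (ILMN_1215252) read 103.8, 101.7 and 114.6 on the insulin arrays, against 131.0, 142.2 and 136.5 on the vehicle arrays. All 3 insulin signals lay below all 3 vehicle signals, and all 6 lay above the detection level. After background correction and normalization the log2 intensities were 5.58, 5.39 and 5.78 with insulin, against 6.24, 6.40 and 6.26 with vehicle. These values averaged 5.58 ± 0.20 with insulin and 6.30 ± 0.09 with vehicle (SD, n = 3 each), a log2 change of -0.72 ± 0.13 (standard error, 95% interval -1.002 to -0.436), or a 1.65-fold fall. In size it stood at rank 16 among the 32 genes lower with insulin. In bulk RNA, fewer cells that express a gene and less of its RNA per cell cannot be told apart.

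The count of 1 called member among 7 tested stands beside 0.464% called over all genes, and nothing is read from it because the set was chosen with this contrast known. The call of Bmp4 ended in 10 of 16 other processings. Without background correction, in the authors' deposited processed values, the log2 change was -0.37 and the call was lost. It was -0.46 with the neqc offset raised to 50, and -0.42 with that offset and normexp fitted to the signals, both again without a call. The call was also lost without any one array other than insulin replicate 3, at log2 changes of -0.63 to -0.75, and without replicate 3 of insulin it held at -0.82.

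The second Bmp4 probe (ILMN_1235698) gave no separate reading. Its signals were 67.9, 73.5 and 74.6 with insulin and 74.8, 69.9 and 73.0 with vehicle, below the lowest detected signal on all 6 arrays. The value for Bmp4 therefore rests on a single probe. Among markers of other cell types, 0 passed the threshold. The summed signal of the 4 basal markers spanned 563.7 to 618.3 with insulin and 635.0 to 663.6 with vehicle. Most of this sum was Acta2, at a mean signal of 366.4 with insulin and 417.9 with vehicle. Krt14 and Trp63 lay near the detection level, and Krt5 was detected on 0 arrays. The sum of the 6 fibroblast markers spanned 869.1 to 912.8 with insulin and 856.6 to 1004.3 with vehicle, with Col1a1, Col1a2 and Lum detected on 0 arrays. Among the fibroblast markers Pdgfra, a receptor of mesenchymal cells named here after its value was seen, had a mean signal of 156.4 with insulin and 190.9 with vehicle. Its log2 change was -0.43, against -0.13 for Dcn and 0.04 for Pdgfrb, the other fibroblast markers detected. None of these passed the threshold. The summed signal of the endothelial markers, near background, spanned 296.0 to 299.9 with insulin and 305.2 to 309.0 with vehicle. That of the luminal markers spanned 2713.6 to 3024.2 with insulin and 2678.3 to 3478.9 with vehicle, and the leukocyte and adipocyte sums also overlapped between the groups. The part of any of these cell types in the fall of Bmp4 was not tested.

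**Figure D2:**
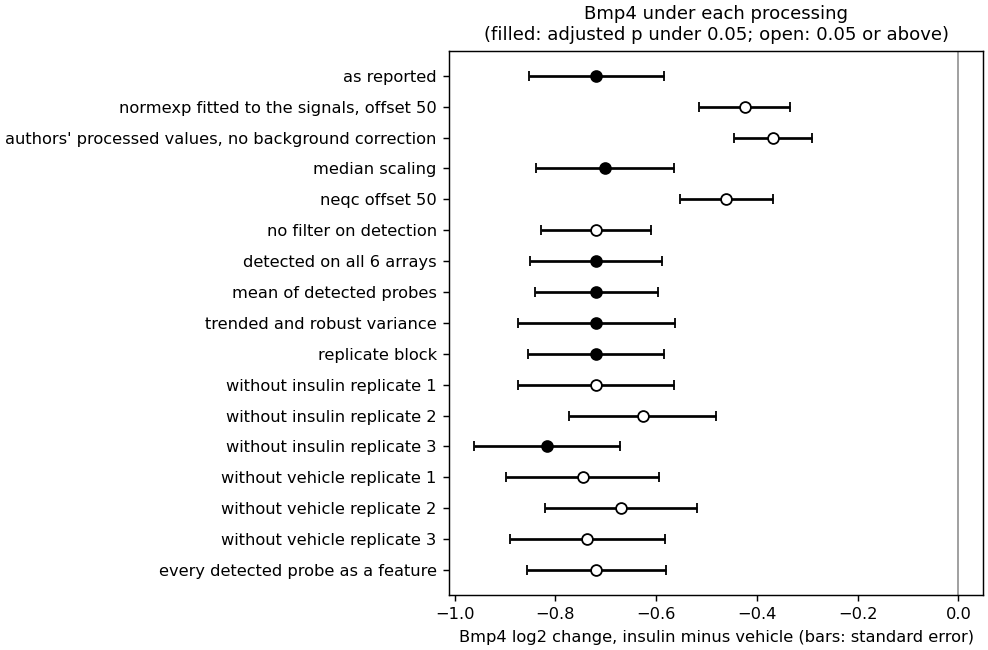
Log2 change of Bmp4, insulin minus vehicle, with its standard error, as reported and under each other processing. Filled points have an adjusted p under 0.05 and open points do not. All estimates lie below 0, from -0.82 to -0.37, and the call was lost in 10 of the 16 other processings.

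Bmp4 is encoded on the minus strand at chr14:46383525-46390669 (GRCm38.p6). Its promoter window, 250 bases before the RefSeq start and the 50 bases from it, is shown because Bmp4 was the member that changed. It spans chr14:46390620-46390919, minus strand, printed 5′ to 3′, with the motif match in capitals.
Bmp4: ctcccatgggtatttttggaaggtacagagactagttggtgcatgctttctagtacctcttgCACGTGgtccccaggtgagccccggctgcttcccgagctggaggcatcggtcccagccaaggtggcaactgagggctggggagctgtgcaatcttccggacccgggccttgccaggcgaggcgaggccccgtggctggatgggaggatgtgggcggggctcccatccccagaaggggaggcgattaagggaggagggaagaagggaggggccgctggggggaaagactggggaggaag
The window was searched on both strands for GGCGCC (a GC-rich BMP response element), GTCTG (a SMAD element), TGTTTAC (a FOXO site), CACGTG (an E-box) and TGACG (part of a cyclic AMP response element). It held 1 match, the E-box at bases 63 to 68 of the window, counted from its 5′ end. Of 32851 windows of the same length in the RefSeq-derived table, 7.15% held that E-box, 11.9% the GC-rich element, 49.6% the SMAD element, 3.65% the FOXO site and 20.8% the cyclic AMP element. A match is a run of letters, not a shown binding site, and its absence says only that these letters are not in the window. The window was 64.0% G and C, against a median of 52.7% over all windows. This was not particular to Bmp4, since the other member windows searched had from 59.3% (Bmpr2) to 79.3% (Bmpr1a).

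The other ligand, Bmp7, which signals through an overlapping set of receptors, was below detection. Its 2 probes read 70.2, 71.9 and 75.0, and 70.2, 69.7 and 69.9, on the insulin arrays, against 74.0, 70.3 and 73.7, and 75.2, 72.5 and 73.9, on the vehicle arrays. Both were detected on 0 of 6 arrays, so no fold is given, and the insulin arrays lay below the vehicle arrays for the second probe only. A transcript of Bmp7 could not be seen above background at this signal level, which does not show that it is absent.

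Among the receptors, Bmpr1a, a type I receptor for BMP2 and BMP4, and Bmpr2, the type II receptor with a long cytoplasmic tail, were both well above background and neither passed the threshold. Bmpr1a probe 1 had log2 intensities of 8.84, 8.73 and 9.04 with insulin, against 8.98, 9.14 and 8.93 with vehicle, and the groups overlapped. The log2 change was -0.15 ± 0.13 (95% interval -0.43 to 0.13), and it was -0.08 without insulin replicate 2 and -0.24 without insulin replicate 3. A second Bmpr1a probe, also detected on all 6 arrays, stood on the other side of 0, at 7.58, 7.79 and 7.56 with insulin against 7.46, 7.63 and 7.41 with vehicle, a log2 change of 0.14 ± 0.13 in the fit with every probe as a feature. The 2 probes of Bmpr1a thus differed in sign, with overlapping groups in each, and their mean changed by -0.003. Insulin replicate 3 was the highest insulin array for the first probe and the lowest for the second.

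Bmpr2 probe 1 gave 9.14, 9.10 and 9.05 with insulin, against 9.08, 9.33 and 9.005 with vehicle. Vehicle replicate 2 stood highest and the insulin arrays lay inside the vehicle range. The log2 change was -0.04 ± 0.13 (95% interval -0.31 to 0.23). The dimmer Bmpr2 probes, close to the detection level, had log2 changes of 0.24 ± 0.13 and 0.09 ± 0.15 in the fit with every probe as a feature, and the fourth was detected on 0 arrays. With the mean of its detected probes the Bmpr2 change was 0.10, opposite in sign to that of the brightest probe.

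**Figure D3:**
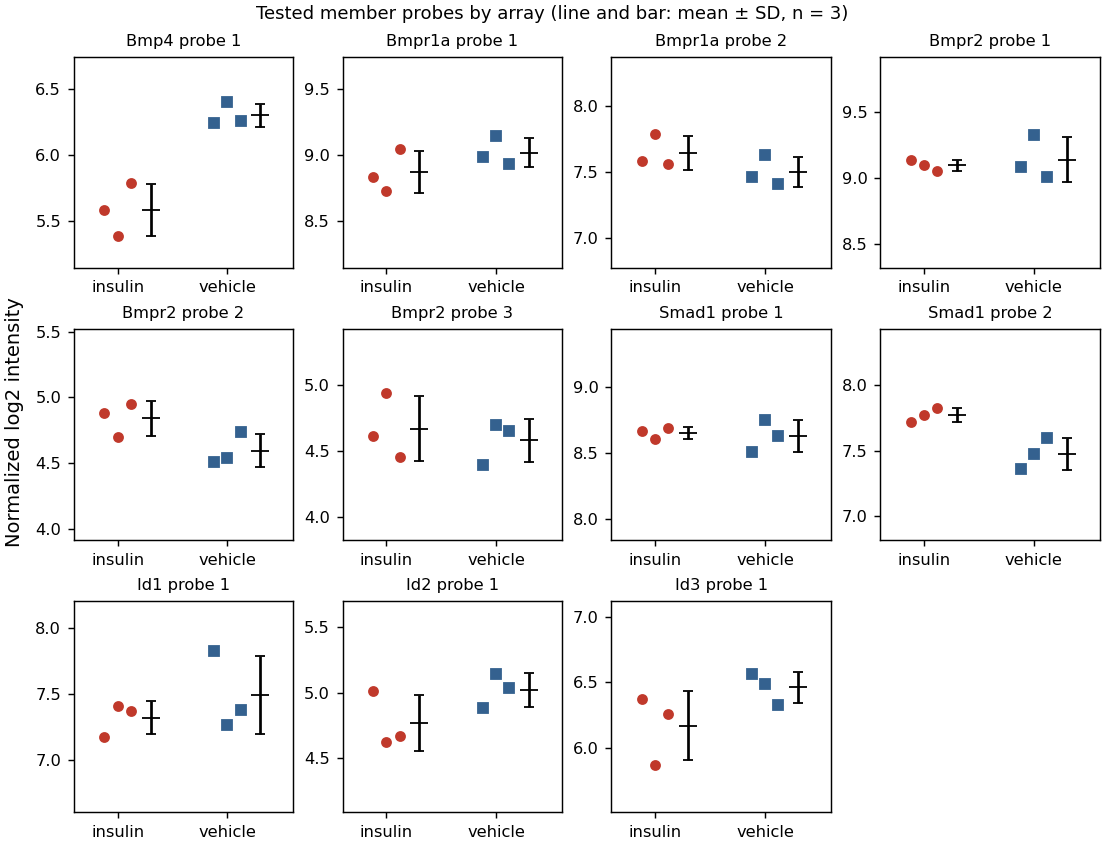
Normalized log2 intensity of the 11 tested member probes on each insulin array (circles) and vehicle array (squares), with mean ± SD (n = 3 each). Every panel spans the same height on the log2 scale. The groups are apart for Bmp4 probe 1 and Smad1 probe 2 and overlap in the other 9 panels.

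Of the 3 member SMAD genes, Smad1, the signal carrier that the BMP type I receptors phosphorylate, was the only one tested. Its brightest probe read 8.67, 8.60 and 8.68 on the log2 scale with insulin, against 8.51, 8.75 and 8.62 with vehicle. The groups overlapped, and the change was 0.03 ± 0.12 (95% interval -0.24 to 0.29). With the mean of its detected probes it was 0.16, also without a call. A second Smad1 probe had log2 intensities of 7.71, 7.77 and 7.82 with insulin, against 7.36, 7.47 and 7.59 with vehicle, so that its groups did not overlap. Its log2 change was 0.30 ± 0.13, short of the threshold in the fit with every probe as a feature, in which 0.12% of 15007 probes were called and the groups were apart for 15.2%. The 3 further Smad1 probes were detected on at most 1 array each, all of these with insulin.

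Smad6 and Smad7, the inhibitory SMADs, which block receptor signalling and are feedback targets of the pathway, each had 1 probe, detected on 0 of 6 arrays. Smad6 read 77.0, 78.1 and 78.9 with insulin, against 73.6, 78.7 and 72.6 with vehicle. Smad7 read 73.5, 70.1 and 69.9 with insulin, against 77.1, 69.9 and 77.8 with vehicle. For both genes the groups overlapped at background, and the feedback arm of the pathway could not be followed on these arrays. Over all 11 member probes that were not tested, signals lay between 67.9 and 82.1.

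The 3 Id genes all had negative changes and 0 of them passed the threshold. Id1, the Id gene most used as a readout of BMP signalling, read 7.17, 7.41 and 7.37 on the log2 scale with insulin, against 7.83, 7.26 and 7.38 with vehicle. Vehicle replicate 1 stood apart from the other 5 arrays, which lay between 7.17 and 7.41. The log2 change was -0.17 ± 0.15 (95% interval -0.49 to 0.15), and it was -0.002 without vehicle replicate 1 and -0.29 without vehicle replicate 2.

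Id2, which also binds proteins of the retinoblastoma family, had 1 of 3 probes in the fit. That probe was dim, at 5.01, 4.62 and 4.67 with insulin, against 4.88, 5.14 and 5.04 with vehicle. Insulin replicate 1 lay within the vehicle range and the other insulin arrays lay below it. The log2 change was -0.25 ± 0.14 (95% interval -0.54 to 0.04), and it was -0.08 without background correction, in the authors' deposited table of processed values. The other Id2 probes were detected on 1 and 0 arrays.

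Id3, a close relative of Id1 that is often induced with it, read 6.38, 5.87 and 6.26 with insulin, against 6.56, 6.49 and 6.33 with vehicle. Its lowest vehicle array lay just under its highest insulin array, so the groups overlapped after normalization, although the non-normalized signals of 138.2, 118.8 and 137.3 with insulin and 149.1, 147.8 and 140.4 with vehicle did not. The log2 change was -0.29 ± 0.14 (95% interval -0.60 to 0.01), and it was -0.14 without insulin replicate 2. The intervals of all 3 Id genes include 0 and also include falls larger than 0.4 on the log2 scale, so neither a fall of that size nor no change is shown.

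**Figure D4:**
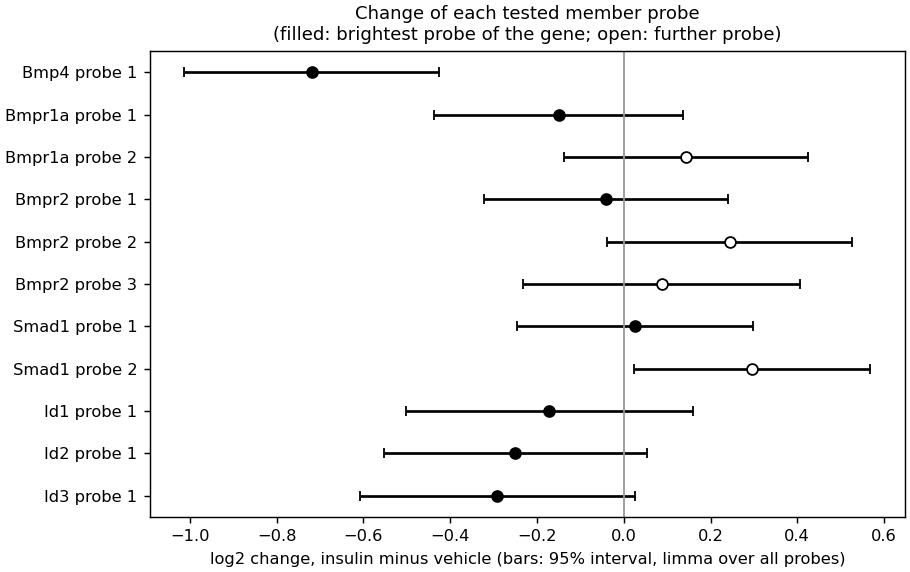
Log2 change, insulin minus vehicle, of the 11 tested member probes, with 95% intervals from the fit with every probe as a feature. Filled points are the brightest probe of a gene and open points its further probes. Only the intervals of Bmp4 probe 1 and Smad1 probe 2 leave out 0, on opposite sides, and neither probe passes the threshold in that fit.

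Promoter windows of Id2 and Id3 are shown because both are direct targets of the pathway in the textbook sense and had the largest negative changes after Bmp4. They lie at chr12:25096043-25096342, minus strand, and chr4:136143572-136143871, plus strand (GRCm38.p6, RefSeq), and capitals mark the matches.
Id2: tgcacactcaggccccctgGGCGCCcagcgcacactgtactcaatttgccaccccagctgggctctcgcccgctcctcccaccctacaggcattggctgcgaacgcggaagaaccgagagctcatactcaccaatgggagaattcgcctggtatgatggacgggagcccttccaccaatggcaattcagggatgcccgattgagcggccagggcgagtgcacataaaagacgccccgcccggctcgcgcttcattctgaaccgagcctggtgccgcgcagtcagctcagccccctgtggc
Id3: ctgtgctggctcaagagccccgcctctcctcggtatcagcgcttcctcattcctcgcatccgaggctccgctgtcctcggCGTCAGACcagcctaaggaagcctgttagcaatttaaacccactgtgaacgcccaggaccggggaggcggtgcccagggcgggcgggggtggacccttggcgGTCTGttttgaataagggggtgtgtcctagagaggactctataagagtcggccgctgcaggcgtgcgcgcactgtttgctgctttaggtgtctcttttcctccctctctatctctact
The Id2 window held the GC-rich element GGCGCC once, at bases 20 to 25. The Id3 window held GTCTG at bases 183 to 187 and, on the opposite strand, at bases 84 to 88, where it overlaps an opposite-strand TGACG at bases 81 to 85. Windows were available for 7 of the 10 members. GGCGCC also occurred once each in those of Bmpr1a and Bmpr2, TGACG once in that of Smad1, and no searched motif in that of Smad6. The FOXO letters TGTTTAC were in 0 of the 7 windows.

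Of the 7 tested members, 6 had a negative log2 change, against 54% of all genes, and their median was -0.17, against -0.02 over all genes. These values are of the brightest probe of each gene, and nothing is read from them because the set was chosen with this contrast known. With the mean of detected probes, Bmpr2 turned to 0.10 and Bmpr1a stood at -0.003. The groups were apart for 1 of 7, against 15.9% of all genes. Bmp4 lay outside the 5th to 95th percentile of all genes, -0.31 to 0.29, and the other 6 lay inside it.

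The rest of the pathway showed no called change. Of 88 further genes of 5 lists, 45 were tested, 0 were higher and 0 lower at the threshold (limma, Benjamini-Hochberg adjusted p over all genes, lowest 0.311), and 5 had an unadjusted p under 0.05. That is 5 of 45 genes, beside 11% of all genes at the same unadjusted level. Their median log2 change was 0.006, with 22 of 45 below 0.

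Among ligands and extracellular antagonists, 7 of 29 genes were tested, with a median log2 change of -0.04. The smallest p was that of Bmper, a secreted BMP-binding protein, at 4.53, 4.71 and 4.93 with insulin against 5.18, 5.01 and 4.94 with vehicle, a log2 change of -0.32 ± 0.14 at a dim probe. Its groups were apart after normalization, at 4.93 with insulin and 4.94 with vehicle, but the non-normalized signals overlapped, at up to 89.2 with insulin and down to 88.8 with vehicle. Of 15 receptors and coreceptors, 9 were tested, with a median of -0.03. Rgma, a membrane-anchored BMP coreceptor of the repulsive guidance family, read 7.10, 7.11 and 7.33 with insulin, against 7.63, 7.47 and 7.46 with vehicle, a log2 change of -0.34 ± 0.13. Its groups did not overlap, and it did not pass the threshold.

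Of 22 SMAD genes and regulators, 17 were tested, 7 of them with a negative change, and the median was 0.03. Tob2, an antiproliferative protein whose relative TOB1 binds BMP-regulated SMADs, read 7.14, 7.12 and 6.65 with insulin, against 6.59, 6.66 and 6.39 with vehicle, a log2 change of 0.42 ± 0.15. Insulin replicate 3 overlapped the vehicle arrays.

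Of 19 further target genes of BMP and TGF-beta, 9 were tested, and 3 had a negative change, around a median of 0.11. Msx1, a homeobox gene induced by BMP4 in many tissues, had a dim probe. It read 5.53, 5.59 and 5.58 with insulin, against 5.08, 5.58 and 5.25 with vehicle, so its groups overlapped. The log2 change was 0.26 ± 0.14, opposite in sign to the Id genes, and neither Msx1 nor the Id genes passed the threshold. The 3 E proteins, which Id proteins bind, were all tested, and Tcf4, at 0.18 ± 0.16, had the smallest p among them.

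**Figure D5:**
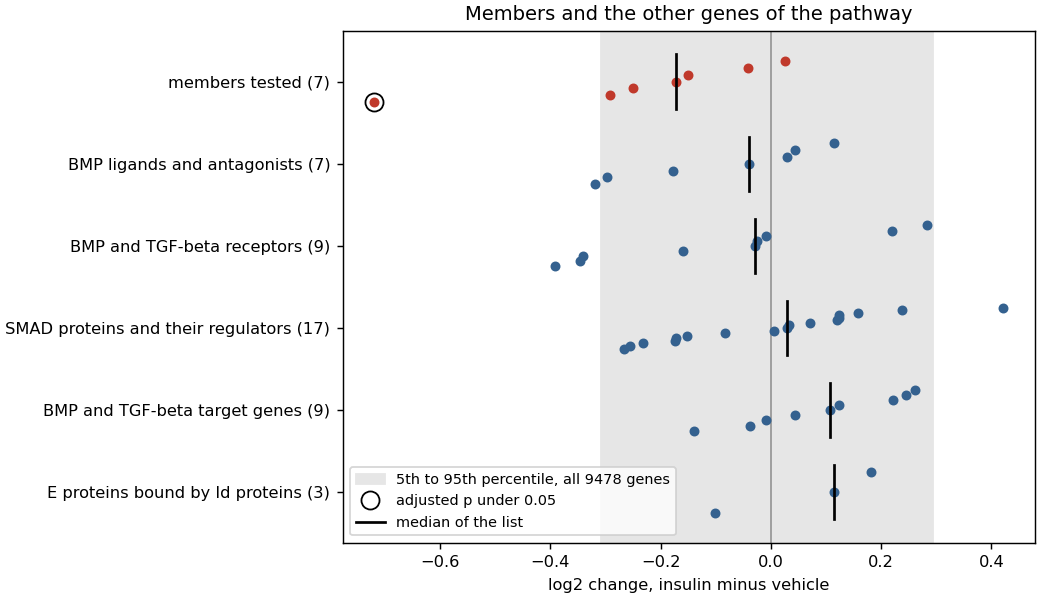
Log2 change, insulin minus vehicle, of the 7 tested members and of the tested genes of 5 lists of the BMP and TGF-beta pathway, with each list's median as a black line. The grey band spans the 5th to 95th percentile of all 9478 genes, -0.31 to 0.29. Bmp4 alone is ringed as past the threshold, and the list medians lie between -0.04 and 0.11.

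The genes whose log2 values over the 6 arrays were most like those of Bmp4 were Rarb, a retinoic acid receptor, at Pearson r = 0.992, Pdia6, a protein disulfide isomerase, at 0.989, Defb25, a defensin, at 0.989, Rgs17, a regulator of G protein signalling, at 0.985, and Fam221a at 0.983. Their log2 changes were -0.39, -0.22, -0.43, -0.25 and -0.60, and none passed the threshold. The negative signs follow from the choice of genes by likeness to Bmp4, whose groups were apart on these arrays, and nothing is read from them. Members and genes with symbols of the kind Gm, Rik or LOC were left out throughout, and 193 genes had an r above 0.9 with Bmp4. For Id1 they were Stat5a, a transcription factor of mammary development, at 0.989, Hpx, a haem-binding plasma protein, at 0.980, Apcdd1, an inhibitor of WNT and BMP signalling, at 0.980, B3gnt3, a glycosyltransferase, at 0.976, and Pms2, a mismatch repair protein, at 0.975. By rank (Spearman) the correlation with Id1 was 0.771 for Hpx and Apcdd1, and 0.943 for Stat5a, B3gnt3 and Pms2. Id1 was highest on vehicle replicate 1, and 86 genes had a Pearson r above 0.9 with it. These values describe 6 arrays that share their groups and processing.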

How the data were processed

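The deposited table of non-normalized values gave, per the file headers, a signal intensity on a linear scale and a detection p-value for each probe on each array. The submitters' processing notes name GenomeStudio, with no version, for these deposited values. A second table, the authors' deposited processed intensity values, equalled a quantile normalization of those signals to within 3.33e-06, with no background correction.

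Signals were corrected with limma 3.58.1 (R 4.3.3) neqc, offset 16, quantile normalized and taken to log2, which stretches differences among dim probes. Probes detected (p under 0.05) on at least 3 of 6 arrays with 1 gene symbol were kept, and the brightest probe stood for a gene. Insulin was compared with vehicle by lmFit and eBayes (two-sided). Adjustment was by Benjamini-Hochberg over the 9478 genes, or over 15007 probes in the fit with every probe as a feature, without the replicate number. The procedure was tested on simulated data with changes planted only in probes brighter than those of Bmp4, Id2 and Id3. That test says nothing about calls at such dim signals. Symbols came from the platform annotation and 34807 probes matched RefSeq by Entrez identifier.

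Members, gene lists and motifs were chosen with earlier results of these data known. Genes named outside the members were, in each list, those past the threshold or else the smallest p, and the 5 genes most correlated with Bmp4 and with Id1. Symbols of the kind Gm, Rik or LOC were left out of the latter. Slide was not used here. The number of arrays limits the precision.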

Additional observations from a re-analysis of the deposited data

How the results depend on the processing

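The log2 change of Bmp4 was negative in all 16 alternatives. It was no longer called with normexp fitted to the signals at an offset of 50, a change of both method and offset (-0.42), with the authors' deposited processed values (-0.37), with neqc at that offset (-0.46), without a filter on detection (-0.72) and with every detected probe as a feature (-0.72). Without single arrays it ranged from -0.82 to -0.63. The count of called members was then 0 under those 5 settings, and 0 to 1 without single arrays. The count of 0 called genes in the other pathway lists was 0 in all 16 alternatives.

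Over all genes, limma called 44, against 29 (13 higher, 16 lower) with normexp on the signals at an offset of 50, 22 with the authors' processed values, 28 with neqc at an offset of 50 and 83 with a trended, robust variance. Without a filter on detection 0 were called, with 1645 at an unadjusted p under 0.05, and 18 probes were called with every probe as a feature. Without single arrays the counts ran from 3 (without vehicle replicate 3) to 69 (without insulin replicate 3). With the replicate number as a block, 75 genes were called and Bmp4, at -0.72, stayed past the threshold. Arrays of the same number shared deviations from their group means at r = 0.090, 0.152 and 0.131. They were not taken as pairs because the labels give replicate numbers and state no pairing. Each of the 6 arrays correlated best with the array of its own number, which is a hint from the data and not from the design.

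Signs turned for Bmpr2 with the mean of its probes (0.097) and without vehicle replicate 2 (0.054), and for Smad1 with median scaling (-0.0095) and without vehicle replicate 1 (-0.034). Without single arrays Bmpr2 ranged from -0.108 to 0.054 and Smad1 from -0.034 to 0.084. The causes were not tested. The changes of Bmpr1a, Id1, Id2 and Id3 were negative in all 15 alternatives run for each, and 0 of them was called. A block for the slide was not run.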
